A study of Sus scrofa with 3 samples.

Results

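miR-10a, miR-10b, miR-196a and miR-196b are the microRNAs that lie between the genes of the HOX clusters. They were followed in small RNA libraries of pig liver, as all hairpin arms that the deposited tables name after one of these 4 members, out of 677 hairpin names of known miRNAs in all. A line for a member was present for 3 of the 4 at E90, where miR-196a had none, and for 4 of 4 at P30d and P7y. In the mature miRNAs, 6 arms of the members had a line in at least 1 library, out of 990 mature miRNAs, and 3 of these 6 reached the mean of 10 CPM (reads per 1000000 reads of named miRNAs) that the comparisons required: miR-10a-5p, miR-10a-3p and miR-10b-5p.

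The livers came from male pigs of the Jinhua breed at embryonic day 90 (E90), at postnatal day 30 (P30d, which the labels call the weaning stage) and at postnatal year 7 (P7y, adult). The labels name 3 pigs per stage and 1 library per stage, and do not say whether RNA was pooled, so no difference here has a replicate check and every comparison sets 1 library against another. No treatment or mutation is named for any stage. The libraries E90, P30d and P7y held 9243601, 3622993 and 9920207 reads of named miRNAs, so that a count of 0, set at a limit of 3 reads, allowed up to 0.325 CPM at E90, 0.828 CPM at P30d and 0.302 CPM at P7y. The tissue label was checked against 5 hepatocyte miRNAs (miR-122, miR-192, miR-194, miR-148a and miR-802), all of which had reads in every library. They summed to 341896 CPM at E90, 382370 CPM at P30d and 304068 CPM at P7y. Their leading arm was miR-122-5p at E90 (128017 CPM) and P30d (213802 CPM) and miR-192-5p at P7y (154836 CPM). Similar sums therefore do not mean that each of the 5 was steady. All intervals are 95% and, like the limits, cover counting error only, since each stage has 1 library. PCR copies of 1 molecule are counted as separate reads, so the intervals can be too narrow even for counting error.

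HOX genes encode transcription factors that give cells their position along the body axis, and they stand in clusters whose order follows that axis. The miR-10 genes lie near the HOX genes of the fourth paralog group and the miR-196 genes near those of the ninth, are transcribed with the neighbouring HOX genes, and repress HOX messages among their targets, as shown for miR-196 and Hoxb8 in mouse and for miR-10b and HOXD10 in human cells. In human endothelial cells miR-10a is known to restrain inflammatory signalling.

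The mature sequences show what tells the members apart, with the seed (bases 2 to 8 from the 5′ end, the part that pairs with target messages) in capitals and T for U as in the tables.

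miR-10a-5p: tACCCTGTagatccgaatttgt

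miR-10b-5p: tACCCTGTagaaccgaatttgt

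miR-196a-5p: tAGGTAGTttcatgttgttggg

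miR-196b-5p: tAGGTAGTttcctgttgttggg

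miR-10a-3p: cAAATTCGtatctaggggaat

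miR-10b-3p: aCAGATTCgattctaggggaat

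Within each pair the 5p arms shared the seed and 21 of 22 bases. Counted from 1 at the 5′ end, miR-10a-5p and miR-10b-5p differed by T12A, and miR-196a-5p and miR-196b-5p by A12C, outside the seed in both pairs. Of 1468 different mature sequences in the 3 tables, those with ACCCTGT at bases 2 to 8 belonged to no names but miR-10a-5p and miR-10b-5p, and those with AGGTAGT there to none but miR-196a-5p and miR-196b-5p. The letters AGGTAGT also stood 1 base further on, at bases 3 to 9, in sequences from 9 hairpins of let-7 and miR-98. The 3p arms of miR-10 parted more: with the first base of miR-10b-3p skipped, 18 of 21 bases were identical, and the differences were A3G, T9A and A10T, so their seeds are not the same. Because the 5p arms of a pair differ by 1 base, a read of 1 member misread at that base can match the other member without a mismatch. The comparison of miR-10a with miR-10b is also given for reads without a mismatch, which does not remove such reads.

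The hairpins of miR-10 are printed as the tables give them, with the sequenced arms in capitals, because the arms of each are compared within a library further on.

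mir-10a: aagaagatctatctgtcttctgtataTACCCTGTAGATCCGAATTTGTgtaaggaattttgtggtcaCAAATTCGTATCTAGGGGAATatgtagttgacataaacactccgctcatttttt

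mir-10b: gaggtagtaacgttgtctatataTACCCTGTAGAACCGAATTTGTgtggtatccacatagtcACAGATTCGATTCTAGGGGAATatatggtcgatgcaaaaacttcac

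On Sscrofa10.2, the build of the tables, mir-10a lies at chr12:24791244-24791364 on the minus strand and mir-10b at chr15:91419007-91419114 on the plus strand. mir-196a has the copies mir-196a-1, at chr12:24836761-24836862 on the plus strand, and mir-196a-2, at chr5:19654956-19655065 on the minus strand, and mir-196b lies at chr18:49836541-49836625 on the plus strand. In RefSeq's gene list for Sscrofa11.1, used for the order of genes and not for coordinates, the nearest listed HOX genes around MIR10A were HOXB3 and HOXB5, around MIR10B HOXD8 and HOXD3, around MIR196A-1 HOXB8 and HOXB13, and around MIR196A-2 HOXC10 and HOXC9. MIR196B had no match in that list. The folding energies that the authors computed were -32.0 kcal/mol for mir-10a and -41.2 kcal/mol for mir-10b, and -32.9, -46.2 and -35.8 kcal/mol for mir-196a-1, mir-196a-2 and mir-196b.

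miR-10a-5p was the member that made up nearly all of the HOX cluster signal, and it was 4.31-fold higher at P7y than at P30d and 3.74-fold higher at P7y than at E90. Its reads numbered 97311 in the E90 library, 33157 in that of P30d and 391015 in that of P7y. Scaled to the named miRNA reads these were 10527 CPM at E90 (interval 10462 to 10593), 9152 CPM at P30d (9054 to 9250.4) and 39416 CPM at P7y (39295 to 39537). It ranked 21st by level among the mature miRNAs at E90 and at P30d and 7th at P7y. The P7y level lay far above both others, and the levels of E90 and P30d lay close to each other, though their intervals did not overlap.

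miR-10b-5p, the paralog from the HOXD cluster, was lower in each library and differed less between them. E90 gave 9604 reads of it, P30d 4130 and P7y 20052.5, the last not whole because reads shared between hairpins are divided. The levels were 1039 CPM at E90 (1018 to 1060.0), 1139.9 CPM at P30d (1105 to 1175) and 2021 CPM at P7y (1994 to 2049.6). P7y was again the highest, while E90 and P30d stood in the opposite order to that of miR-10a-5p. Its rank by level was 76th at E90, 64th at P30d and 38th at P7y.

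The 3p arms, the strands of the hairpin that are usually degraded, were rare. miR-10a-3p had 116 reads (12.5 CPM) at E90, 63 reads (17.4 CPM) at P30d and 221 reads (22.3 CPM) at P7y. Its intervals overlapped between neighbours in this order, at 10.4 to 15.1 CPM, 13.4 to 22.2 CPM and 19.4 to 25.4 CPM. miR-10b-3p had 22 reads (2.38 CPM) at E90 and 19 reads (5.24 CPM) at P30d, and the P7y table has no line for it. The total that the P7y table gives for the whole mir-10b hairpin exceeded that of its listed arm by 64.5 reads (6.50 CPM). The mir-10a hairpin, with both arms listed at P7y, had a similar excess over its arms, of 66 reads (6.65 CPM). An excess of this size therefore does not show an unlisted 3p arm. That of mir-10b lay above the level of miR-10b-3p in either other library, so no ratio is given for miR-10b-3p at P7y.

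The miR-196 members were at the edge of detection. miR-196b-5p had 50 reads at E90 (5.41 CPM, 4.01 to 7.13), 1 read at P30d (0.276 CPM, 0.00699 to 1.54) and 7 reads at P7y (0.706 CPM, 0.284 to 1.45). miR-196a-5p had no line at E90, 1 read at P30d and 1 read at P7y. The read of P30d was divided equally between mir-196a-1 and mir-196a-2, and that of P7y held a mismatch and was given to mir-196a-2. No line was listed for miR-196a-3p or miR-196b-3p in any library. At P30d the 2 miR-196 members had 1 read each, and at P7y their intervals overlapped, so their order is not resolved outside E90. At E90 the order of the arms was miR-10a-5p, miR-10b-5p, miR-10a-3p, miR-196b-5p and miR-10b-3p, with no overlap of intervals between neighbours.

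**Figure D1:**
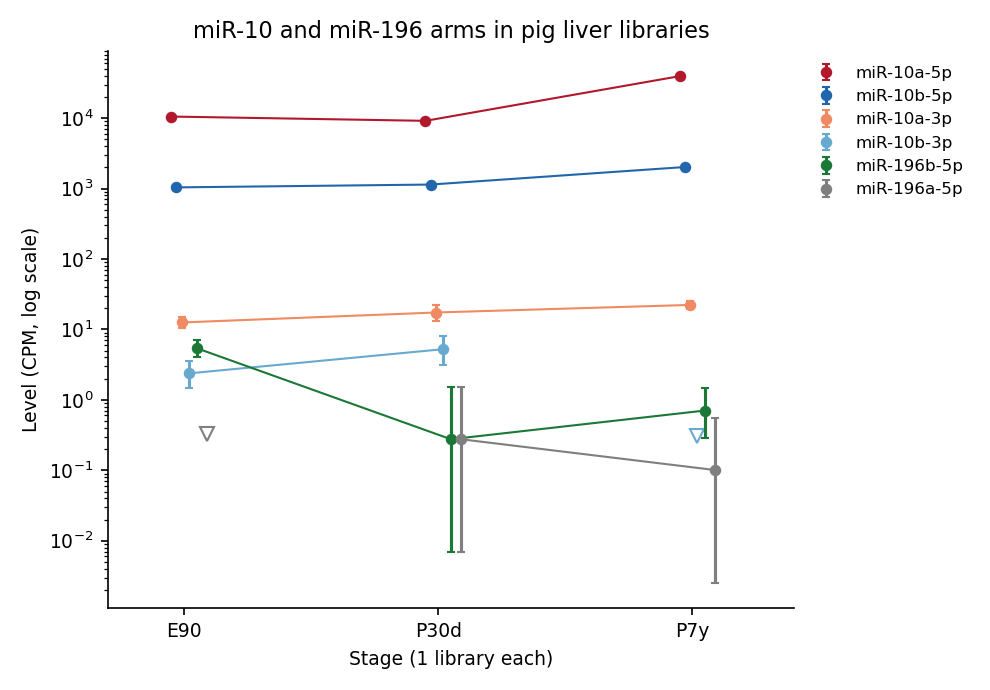
Level of each arm of miR-10 and miR-196 (CPM, log axis) at E90, P30d and P7y, with 1 library per stage; bars are exact 95% counting intervals and open triangles mark arms with no line at the 3-read limit of that library. miR-10a-5p runs at 10527, 9152 and 39416 CPM at E90, P30d and P7y, miR-10b-5p at 1039, 1139.9 and 2021 CPM, and both miR-196 members below 1 CPM at P30d and P7y.

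Of all named reads the 4 members together made up 1.16% in the E90 library (1.15 to 1.17, by the exact Clopper-Pearson method), 1.03% in the P30d library (1.02 to 1.04) and 4.15% in the P7y library (4.13 to 4.16). miR-10a-5p supplied 90.9%, 88.7% and 95.1% of them at E90, P30d and P7y. The summed level at P7y was 4.02 times that at P30d (log2 ratio 2.01, interval 1.99 to 2.02) and 3.58 times that at E90 (1.84, 1.83 to 1.85). These folds are in CPM, and other scalings raised them: with TMM and DESeq2 factors the log2 ratio of the sum was 2.996 and 3.18 for P7y over P30d and 2.86 and 2.94 for P7y over E90. At P30d it differed from E90 by a log2 ratio of -0.17 (-0.18 to -0.15).

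The comparison of P30d with E90 spans birth and the first weeks of life. miR-10a-5p was at 9152 CPM at P30d against 10527 CPM at E90 (log2 ratio -0.20, interval -0.22 to -0.18), and miR-10b-5p at 1139.9 CPM against 1039 CPM (0.13, 0.08 to 0.19). miR-10a-3p differed by 0.47 (0.00 to 0.93). Calls required a log2 ratio of at least 1 in size with an interval off 0, and 68.8% of the 324 miRNAs that averaged at least 10 CPM met this in the pair, 33.3% as higher at P30d and 35.5% as lower. None of the 3 member arms did, so the abundant arms of miR-10 differed by less than 2-fold between the P30d and E90 libraries while most of the 324 differed by more.

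Below that filter, miR-196b-5p was lower at P30d, with 1 read against 50 reads at E90 (log2 ratio -4.29, interval -9.62 to -1.75). The 7 reads of P7y stood at 0.706 CPM against 5.41 CPM at E90 (-2.94, -4.32 to -1.79), also lower. This ratio was smaller in size but still called lower at -1.92 with TMM, -1.83 with DESeq2 factors and -2.03 with the representative read. With 1 read at P30d, P7y over P30d was not resolved (1.35, -1.61 to 6.85). miR-10b-3p was higher at P30d, with 5.24 CPM against 2.38 CPM at E90 (1.14, 0.17 to 2.09), a call that rests on 19 and 22 reads and is lost with reads without a mismatch (0.98) and with the representative read (1.01, with an interval that includes 0).

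Between P7y and P30d, the adult and the young liver, the median log2 ratio of the 324 miRNAs was -1.36 in CPM, and scaling by TMM factors moved it by 0.99, so each ratio is also given relative to that median. miR-10a-5p was higher at P7y, at 39416 CPM against 9152 CPM at P30d, a log2 ratio of 2.11 (2.09 to 2.12) that stood 3.46 above the median and ranked 22nd from the highest of 324. It was the 1 of the 3 member arms called higher, beside 69.4% of all 324 called, 13.6% as higher and 55.9% as lower. miR-10b-5p, at 2021 CPM against 1139.9 CPM, had a log2 ratio of 0.83 (0.78 to 0.88), below the 2-fold rule in CPM, and stood 2.18 above the median at rank 50. miR-10a-3p, at 22.3 CPM against 17.4 CPM, had 0.36 (-0.05 to 0.79), 1.71 above the median. Under TMM scaling the log2 ratios of miR-10a-5p, miR-10b-5p and miR-10a-3p were 3.10, 1.81 and 1.35, and all 3 passed the rule. Over the 324 the split of higher to lower was 44 to 181 in CPM, against 87 to 117 with TMM.

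The comparison of P7y with E90 gave the same order of arms. The median log2 ratio was -1.04 in CPM and was moved by 1.02 under TMM. miR-10a-5p was higher at P7y by 1.90 on the log2 scale (1.89 to 1.91), which is 2.94 above the median and rank 17 of 324. miR-10b-5p had 0.96 (0.93 to 0.995), 1.998 above the median, at 1.95-fold just under the 2-fold rule. miR-10a-3p had 0.83 (0.50 to 1.16). In this pair 1 of the 3 arms was called higher, beside 62.7% of all 324 called, 12.0% as higher and 50.6% as lower, and under TMM, where miR-10b-5p and miR-10a-3p passed as well at 1.98 and 1.85 beside miR-10a-5p at 2.92, the split over the 324 was 90 higher to 108 lower, against 39 to 164 in CPM.

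**Figure D2:**
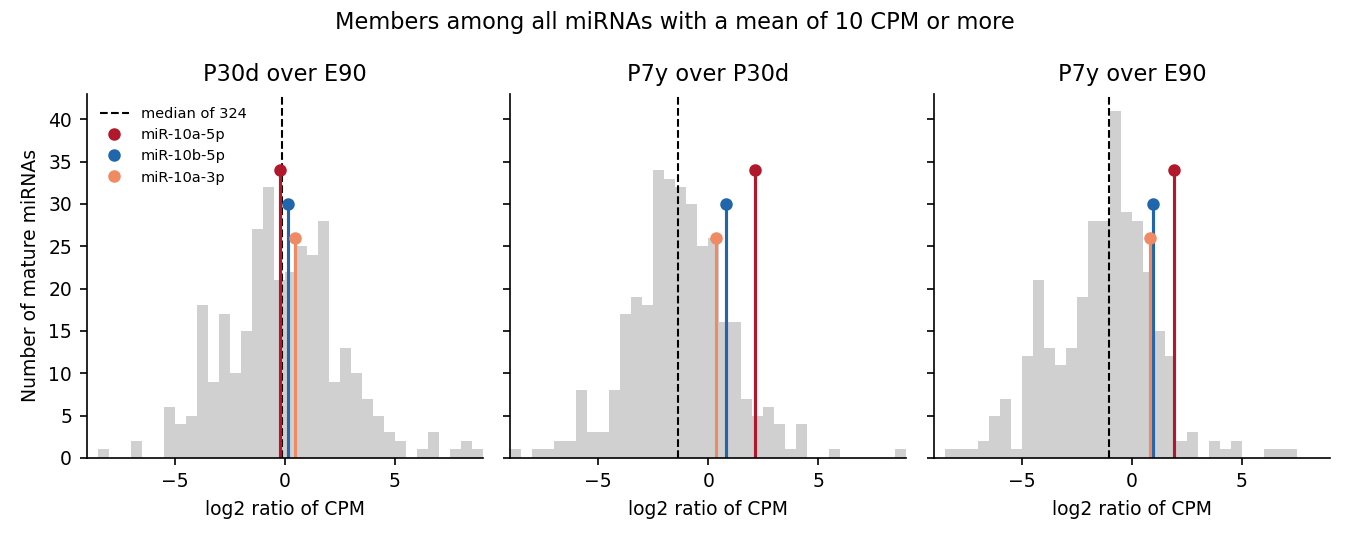
Histograms of the log2 ratio of CPM over the 324 miRNAs averaging at least 10 CPM for P30d over E90, P7y over P30d and P7y over E90, with the median as a dashed line and the 3 member arms as coloured stems. miR-10a-5p lies near the median for P30d over E90 and 3.46 and 2.94 above it in the pairs with P7y, where miR-10b-5p lies 2.18 and 1.998 above it.

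Ratios within a library do not depend on how libraries are scaled. There were 19.5 miR-10a-5p reads for each miR-10b-5p read at P7y (19.2 to 19.8), against 8.03 at P30d (7.77 to 8.29) and 10.1 at E90 (9.92 to 10.3). The balance of the paralogs thus moved toward miR-10a by 2.43-fold at P7y over P30d (2.34 to 2.52) and by 1.92-fold at P7y over E90 (1.88 to 1.97), and P30d stood at 0.792 times E90 (0.762 to 0.824). With reads without a mismatch the ratios were 19.3 at P7y, 7.69 at P30d and 9.90 at E90. With only the most frequent read of each arm they were 17.8, 7.00 and 8.93 at P7y, P30d and E90. Neither count removes reads misread at the single base between the paralogs. miR-10a-5p and miR-10b-5p share a seed, so reads that carry the miR-10 seed came mostly from miR-10a in each library.

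The arms of mir-10a moved apart as well. For each miR-10a-3p read there were 1769 miR-10a-5p reads at P7y (1551 to 2028), against 526 at P30d (411 to 685) and 839 at E90 (699 to 1015). The change of this ratio was 3.36-fold for P7y over P30d (2.50 to 4.47), 2.11-fold for P7y over E90 (1.67 to 2.65) and 0.627 for P30d over E90 (0.458 to 0.867). On the log2 scale the changes for P7y over P30d and P7y over E90 were 1.75 and 1.08, and 2.72 and 1.77 when the representative read of each arm alone was counted. Set beside 179 hairpins that reached 50 reads per library, 24 had a higher ratio of 5p to 3p reads than mir-10a at E90, 12 at P30d and 18 at P7y. For mir-10b the ratio was 217 at P30d (139 to 361) against 437 at E90 (288 to 697), a change of 0.498 (0.257 to 0.974) that rests on 19 and 22 reads of the 3p arm. On the log2 scale this change was -1.01, and it was -0.97 with reads without a mismatch (-1.93 to 0.02) and with the representative read (-2.46 to 0.58). Both of these fell short of 2-fold and have intervals that include 0, so the change is not resolved there.

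**Figure D3:**
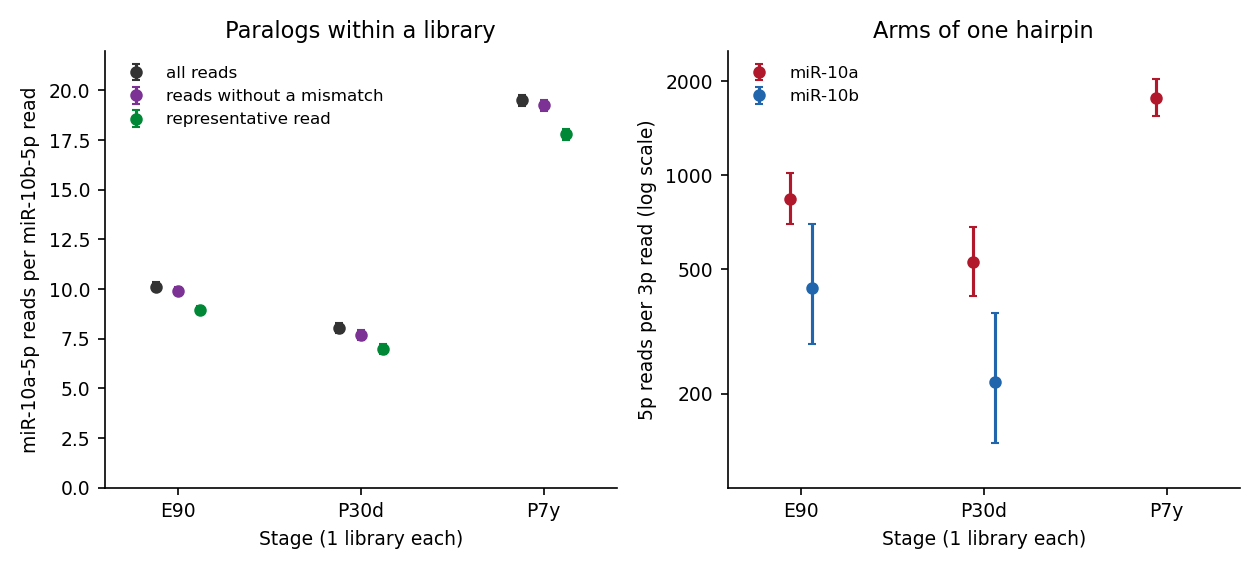
Left, miR-10a-5p reads per miR-10b-5p read at E90, P30d and P7y for all reads, reads without a mismatch and the representative read; right, 5p reads per 3p read of mir-10a and mir-10b (log axis), with mir-10b at P7y left out because its 3p arm has no line. Bars are exact 95% counting intervals; the paralog ratio is 19.5 at P7y against 8.03 at P30d and 10.1 at E90, and the arm ratio of mir-10a is also highest at P7y, at 1769.

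The 5p arms of miR-10 had the same most frequent read in each library, while their share of mismatched reads differed. The most frequent read of miR-10a-5p was the full mature sequence printed above in all 3 libraries, with 74.8%, 70.4% and 75.02% of its reads at E90, P30d and P7y. For miR-10b-5p it was likewise the printed sequence, with 84.9%, 80.8% and 82.2% at E90, P30d and P7y, above the medians of 53.0%, 52.1% and 49.997% over miRNAs that averaged at least 100 CPM. Reads with a mismatch were 5.42%, 9.85% and 5.86% of miR-10a-5p and 3.25%, 5.84% and 4.69% of miR-10b-5p at E90, P30d and P7y, below the medians of 11.9%, 14.0% and 15.8%. The intervals of P30d (9.53 to 10.17 for miR-10a-5p, 5.14 to 6.59 for miR-10b-5p) lay above those of the other libraries. P30d is also the library in which the ratio of miR-10a-5p to miR-10b-5p was lowest. Leaving mismatched reads out gave a ratio of 7.69 at P30d in place of 8.03. Mismatched reads were a larger share of miR-10a-5p than of miR-10b-5p in each library, so leaving them out can only lower the ratio. Whether mismatches bear on the order of the libraries was not tested.

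miR-10a-3p behaved otherwise. Its most frequent read held 62.9% of its reads at E90 (53.5 to 71.7), 71.4% at P30d (58.7 to 82.1) and, in the P7y library, 38.9% (32.4 to 45.7), and its share of mismatches was 2.59%, 11.1% and 19.9%. Counting that read alone, miR-10a-3p had a log2 ratio of -0.43 (-0.96 to 0.13) for P7y over P30d in place of 0.36 (-0.05 to 0.79). The sign thus changed with the reads counted, but both intervals include 0, so its direction in this pair is not resolved in CPM. Among the rare arms, the most frequent read of miR-196b-5p lacked the last base of the printed sequence at E90 and P30d and held it at P7y, and that of miR-10b-3p lacked the first base at E90 and held it at P30d.

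**Figure D4:**
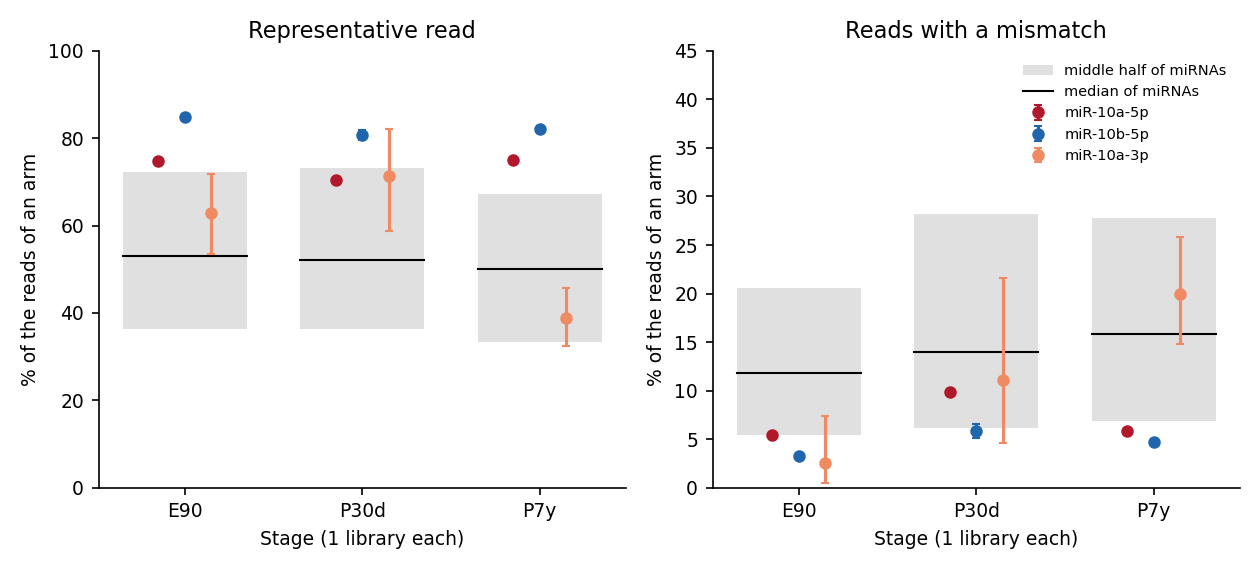
Share of the reads of miR-10a-5p, miR-10b-5p and miR-10a-3p that are the representative read (left) and that hold a mismatch (right), in percent, at E90, P30d and P7y. Points have exact 95% intervals, and the grey boxes and black lines are the quartiles and median over miRNAs averaging at least 100 CPM; at P7y the representative read is 38.9% of miR-10a-3p and 75.02% of miR-10a-5p.

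Among miRNAs that averaged at least 100 CPM, the pattern most like that of miR-10a-5p over the 3 libraries was that of miR-145-5p, a miRNA of smooth muscle, at 1189 CPM at E90, 1043 CPM at P30d and 4688 CPM at P7y. Likeness was the root mean square difference of log2 CPM after each miRNA was centred on its own mean, which was 0.033 for miR-145-5p. The next were let-7g-5p (0.280), miR-4335-5p (0.414), let-7f-5p (0.431) and miR-195-5p (0.434). The let-7 miRNAs belong to a family that accumulates as tissues differentiate, but its members did not move together here. For P7y over P30d in CPM, let-7g-5p (log2 ratio 1.45) and let-7f-5p (1.06) were higher. Of the others, let-7c-5p (-1.30) and let-7e-5p (-2.16) were called lower, and let-7a-5p (-0.76) was called neither. The median of the 324 in this pair was -1.36. Of these, let-7a-5p and let-7c-5p lay above that median and let-7e-5p below it. The pattern most like that of miR-10b-5p was that of miR-125a-5p (0.041), at 3671 CPM at E90, 4281 CPM at P30d and 7147 CPM at P7y, followed by miR-140-3p (0.137), miR-4335-5p (0.166), the liver and gut miRNA miR-192-5p (0.193) and let-7f-5p (0.213). The miR-10 paralogs differed from each other by 0.542, with 7 of 175 miRNAs nearer to miR-10a-5p than miR-10b-5p was and 21 nearer to miR-10b-5p than miR-10a-5p was. With 3 libraries such likeness is a description and many miRNAs can share a shape.

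**Figure D5:**
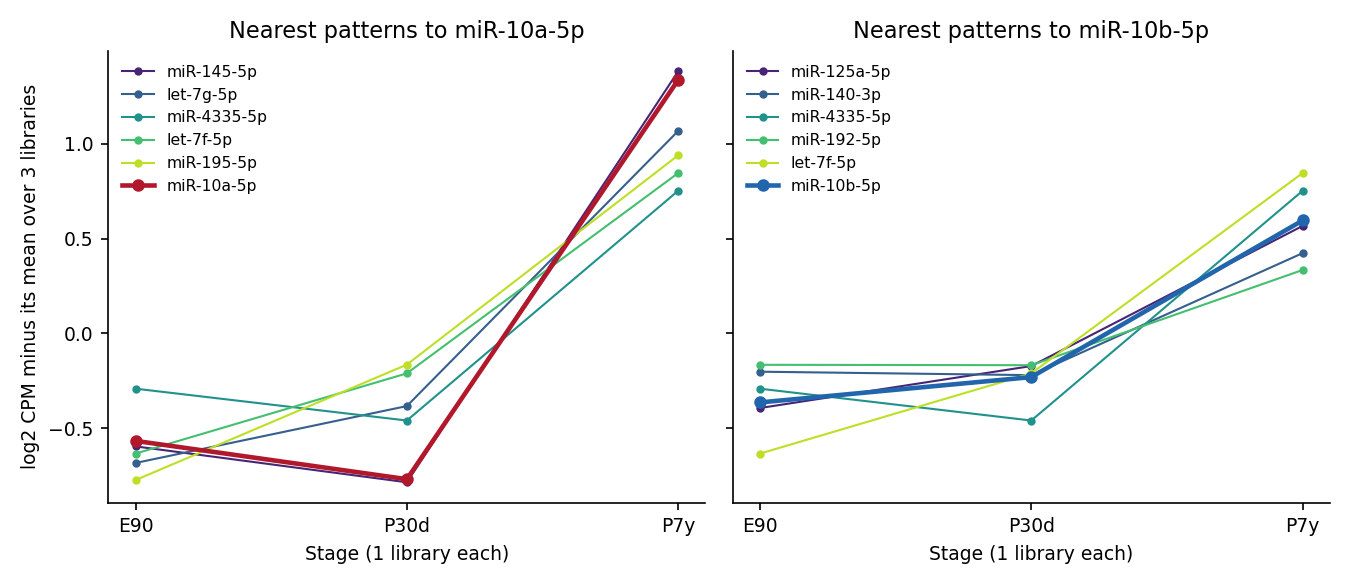
log2 CPM at E90, P30d and P7y minus the mean over the 3 libraries for miR-10a-5p (left) and miR-10b-5p (right), each with the 5 miRNAs most like it among those averaging at least 100 CPM. miR-145-5p runs beside miR-10a-5p with a difference of 0.033 and miR-125a-5p beside miR-10b-5p with 0.041.

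miR-145-5p belongs to a list of smooth muscle and mesenchymal miRNAs (miR-143, miR-145, miR-199a, miR-199b and miR-214), all 5 of which had reads in every library. The sum of their 9 arms, none of them at 0, was 114675 CPM at P7y, 67896 CPM at P30d and 60140 CPM at E90, most of it miR-143-3p at P7y and E90, with 102623 and 51124 CPM, and miR-199a-5p at P30d, with 40212 CPM. The sum did not describe most of the list. For P7y over P30d, 2 of the 9 arms were called higher, miR-143-3p (2.53) and miR-145-5p (2.17). Another 5 were called lower, among them miR-199a-5p (-3.99) and miR-214-3p (-1.48). Over all 324, 13.6% were called higher and 55.9% lower, so the share of the list called lower was near that of all miRNAs. The median log2 ratio of the list was -1.00005 against -1.36 over all 324. With TMM 4 arms were called higher and 1 lower, beside 87 and 117 of the 324. For P7y over E90 in CPM, 3 were called higher and 0 lower, beside 12.0% and 50.6% of the 324, with a median of 0.03 against -1.04. With TMM these counts were 6 and 0, beside 90 and 108 of the 324. The endothelial list (miR-126, miR-221 and miR-222) summed to 14221 CPM at P7y, 14678 CPM at P30d and 18152 CPM at E90. Its leading arm was miR-126-3p, at 10952, 7426 and 11832 CPM, and the sum did not describe the other arms. For P7y over E90, 0 of its 5 arms past the filter were called higher and 3 lower in CPM, beside 12.0% and 50.6% of the 324. With TMM miR-126-5p (1.85) was called higher and miR-221-3p (-2.16) and miR-222-3p (-2.80) lower, beside 90 and 108 of the 324. The leukocyte list (miR-142, miR-146a, miR-150, miR-155 and miR-223) summed to 1116 CPM at P7y, 4597 CPM at P30d and 1037 CPM at E90, with 1 arm at 0 at P30d. Its leading arm was miR-142-5p, with 609, 2956 and 374 CPM at P7y, P30d and E90. For P7y over P30d, 0 of its 6 arms past the filter were called higher and 3 lower in CPM. With TMM the counts were 1, miR-223-3p (1.71), and 2, beside the shares given above for this pair. The erythroid list (miR-144, miR-451 and miR-486) summed to 1821 CPM at P7y, 3034 CPM at P30d and 7242 CPM at E90. For P7y over P30d, 0 of its 4 arms past the filter were called higher and 1 lower in CPM, beside 13.6% and 55.9% of the 324. Their median log2 ratio was -0.13 against -1.36. With TMM the counts were 1 and 1, beside 87 and 117 of the 324, with a median of 0.86. For P7y over E90 they were 0 and 4 in CPM and 0 and 2 with TMM, beside the shares given above. The striated muscle list (miR-1, miR-133a, miR-133b, miR-206 and miR-499) summed to 83.0, 383 and 174 CPM at P7y, P30d and E90, with 3 arms at 0 at P7y and 1 at P30d. The part of these cell types in the levels of miR-10 was not tested, and in whole liver more cells of a type and more RNA per cell cannot be told apart.

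The relatives of miR-10 by sequence are miR-99a, miR-99b, miR-100, miR-125a and miR-125b, of which the miR-99 and miR-100 miRNAs share most of its bases. At P7y against P30d, 2 of their 7 arms past the filter were called higher, miR-100-5p (log2 ratio 1.31) and miR-99b-5p (interval 0.97 to 1.03), and 1 was called lower, miR-99a-3p (-1.79), and their median log2 ratio was 0.74 against -1.36 over all 324, of which 13.6% were called higher and 55.9% lower. With TMM 5 of the 7 were called higher, miR-99a-5p (1.93), miR-125a-5p (1.73) and miR-125b-3p (1.63) as well, and 0 lower, with miR-99a-3p at -0.80. Under the same scaling 87 of the 324 were called higher and 117 lower. At P7y against E90, 1 arm was called higher, miR-125b-5p (1.68), and none of the 7 lower, with a median of 0.09 against -1.04 and with 12.0% of the 324 called higher and 50.6% lower. With TMM 4 were called higher, miR-125a-5p (1.98), miR-100-5p (1.77) and miR-99a-5p (1.11) as well, and 0 lower, beside 90 higher and 108 lower of the 324. At P30d against E90, miR-125b-5p (2.43) and miR-99a-3p (1.13) were called higher and miR-99b-5p (-1.37) and miR-125b-3p (-1.19) lower, with a median of -0.56 against -0.11 and with 33.3% of the 324 called higher and 35.5% lower. With TMM the counts were 2 and 2, beside 111 higher and 112 lower of the 324. The 3p arms are named after their values were seen. The values of miR-10a-5p in the same pairs were 2.11, 1.90 and -0.20. In summed level the relatives held 161769 CPM at P7y, 87657 CPM at P30d and 131536 CPM at E90, more than the 4 HOX cluster members together in each library.

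miR-615, which lies inside HOXC5 in the RefSeq list, completes the miRNAs of the HOX clusters. No line of the pig mir-615 was in the tables, and 2 reads at E90 stood on a line that is named after the horse mir-615 and also after human mir-483, so they cannot be assigned to either.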

How the data were processed

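Small RNA of 14 to 40 nt was sequenced from liver on a Genome Analyzer II, per the labels' protocols. The authors aligned reads to known mammalian miRNA hairpins, pig included, per the file headers, and deposited expected counts per hairpin arm, a read of several hairpins being divided among them, with the same estimated counts for reads without and with a mismatch. The deposited reads per hairpin and copies of the representative read are counts, and the deposited folding energy is a score in kcal/mol. The submitters' processing notes name Sscrofa10.2. Not given in the sources used here are the aligner, the trimming and the miRBase release.

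Members and lists were chosen with earlier results of these data known. Expected counts were summed per mature miRNA without species prefix and copy number, and 17 of 1007 names were merged into others whose leading read they shared (18 nt at least, over 50% of reads in both). CPM used the reads of named hairpins (98.3%, 96.0% and 99.9% of table reads at E90, P30d and P7y). Ratios are later over earlier, with exact conditional binomial intervals and no p-values, since there is 1 library per stage. Named miRNAs were the members, miR-615, the relatives and the 5 patterns nearest to each miR-10. Alternatives used edgeR 4.0.16 (TMM) and DESeq2 1.42.0 (size factors). The scripts were run with Python 3.11.15, SciPy 1.17.1 and R 4.3.3. The calls between a pair of libraries were tested on simulated counts with known folds and counting error only. The arm ratios, the paralog ratios and the likeness of patterns were not tested in this way.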

Additional observations from a re-analysis of the deposited data

Results flagged for a closer look

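Outside the named miRNAs, the P7y table holds a predicted hairpin at chrX:64456726-64456985 (Sscrofa10.2) with 4 reads, above the limit of 3 reads that a count of 0 allows. Its representative read is accctgtagatccaatttgt, which is miR-10a-5p from base 2 on with 1 base left out. These reads were not counted with miR-10a-5p, which had 391015 reads in that library.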

How the results depend on the processing

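Of 161 alternative values over 26 results, 136 kept their direction and their side of the 2-fold rule (or lay within 1.5 times a count). miR-10a-5p stayed called higher in both pairs with P7y in each alternative run. One value reversed: with the representative read only, miR-10a-3p had -0.43 for P7y over P30d, with an interval that includes 0 (-0.96 to 0.13). miR-10b-5p passed the 2-fold rule for P7y over P30d at 1.81 with TMM, 1.99 with DESeq2 size factors and 1.15 with the 5 leading miRNAs of each library left out of the total, and for P7y over E90 at 1.98, 2.06 and 1.28. The arm ratio of mir-10b for P30d over E90 (log2 -1.01) fell short of it at -0.97 with reads without a mismatch and at -0.97 with the representative read. The intervals of both include 0. Counts of miRNAs called (223 for P30d over E90, 225 for P7y over P30d, 203 for P7y over E90) moved to 138, 146 and 133 with known pig miRNAs only, to 396, 410 and 432 with no filter and to 117, 123 and 103 at a mean of 100 CPM, which test other numbers of miRNAs. The cause of the other changes was not tested. The ratio of miR-10a-5p to miR-10b-5p, its alternatives and the TMM counts of the lists were added after seeing the data. No paired analysis was possible because each stage has 1 library. Depth limits miR-196a, miR-196b and miR-10b-3p, which rest on 50 reads or fewer per library.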
